A study of Homo sapiens with 8 samples.

Results

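The kinesins are a family of motor proteins, and 41 kinesin genes were read from expression arrays of HuCCT1 cells, an established human line of intrahepatic cholangiocarcinoma, in which BEX2 had been knocked down. A gene was a member if its name on the array was KIF followed by a number and optional letters, or KIFC1, KIFC2 or KIFC3, which selected 41 of the 34809 gene names on the array by name and not by measured values. By the part each motor is known to play, 14 were grouped as mitotic, 17 as transport and 10 as other kinesins. The family and these classes were chosen with earlier results of these data known. KIF4B, a near-identical copy of KIF4A, was not on the array by name, and a share of its RNA in the KIF4A signal cannot be told apart.

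Most kinesins use ATP to move along microtubules or to take their ends apart. Mitotic kinesins build the spindle, move and align chromosomes and complete cytokinesis, and many of their genes are known to be transcribed mainly in late S, G2 and M phase through promoters with CCAAT boxes and a cell cycle homology region. Transport kinesins carry vesicles, mitochondria and other cargo in dividing and resting cells, with light chains and adaptors that choose the cargo, while dynein with its activator dynactin moves the opposite way.

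The microarrays held total RNA of 4 kinds of HuCCT1 cells on 2 arrays each. Cells with the vector shControl and cells with the vector shNontarget were taken as control cells, and the sublines shBEX2-1 and shBEX2-2 expressed short hairpin RNA against BEX2. The study's methods describe retroviral delivery of the hairpins and write their target sequences as reverse complements of each other over nearly their whole length, so the sublines cannot be counted as knockdowns through separate sites. The study describes 1 control hairpin, against luciferase, and which of the labels shControl and shNontarget it stands for was not settled by the sources used here. Separate cultures behind the paired arrays of 1 vector are stated neither in the labels nor in the methods, so p-values measure only the spread between these arrays, and all 8 lay on 1 slide with every control array in row 1 and every knockdown array in row 2, so that position and knockdown cannot be told apart.

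Values are log2 of the deposited processed intensity minus the 75th percentile of the array, so that a difference of 1 is a 2-fold difference in signal. That percentile was 666 to 838 on control and 441 to 631 on knockdown arrays, and 59.8% to 64.6% of 58717 non-control spots were well above background. The shNontarget arrays stood apart from each other, with 34.9% of 20464 tested genes differing by more than 1 between them, against 0.562% to 1.76% for the other vectors, and results are therefore also given with shControl as the only control. The biliary epithelium markers KRT7, KRT19, KRT8, KRT18, SOX9 and EPCAM were all well above background on all 8 arrays. Of these KRT8 rose by 1.02 on the log2 scale (adjusted p = 0.0165) and the others were not called. The array design places the probe used for KRT8 on chromosome 8 and that for KRT18 on chromosome Y. Which locus gave their signal was not tested. Of 17 markers of hepatocytes, fibroblasts, leukocytes, endothelium and neurons, 7 were never well above background, among them ALB, COL1A2, COL3A1 and PECAM1. Another 5 (COL1A1, CDH5, VWF, CD14 and SNAP25) were well above background on all 8 arrays. The summed signal of the 17 markers relative to the 75th percentile was 1.32 to 2.27 on control and 1.33 to 1.54 on knockdown arrays. Of the 7 of these that were tested, CD14 rose by 0.54 and SNAP25 fell by 0.95. The part of these markers in the results below was not tested.

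BEX2 itself, a small gene of the brain expressed X-linked family, was lower in every knockdown array. Its log2 values were -3.36 and -3.91 on the shControl arrays, -2.70 and -3.77 on the shNontarget arrays, -5.21 and -5.54 on the shBEX2-1 arrays and -4.92 and -4.60 on the shBEX2-2 arrays. The fall over 4 against 4 arrays was 1.63 ± 0.32 (SE) on the log2 scale, with an adjusted p of 0.0116 in limma. With normexp background correction it was 0.45 (adjusted p = 0.0796), and with shNontarget as the only control 1.83 (adjusted p = 0.0786). The probe was not well above background on either shBEX2-1 array, so that BEX2 was at least 3.83-fold lower there than in the mean of both control vectors.

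Comparison of knockdown with control cells showed a rise of 11 of 13 tested mitotic kinesins, while no transport kinesin was called higher. Of the 41 genes, 31 passed the detection filter (a probe detected well above background in 4 or more of 8 arrays) and were tested, of which 26 were detected on all 8. In limma with Benjamini-Hochberg adjustment over all 20464 genes, none of the mitotic kinesins fell, and of 14 transport kinesins 0 were called higher and 2 fell. At an unadjusted p under 0.05, 6 of the 14 transport kinesins differed in either direction, as did 27.8% of all genes. Among the 4 tested other kinesins KIF24 rose, and KIF7 was called lower with a probe that was well above background on 4 control arrays and 1 knockdown array. Over all tested genes, 6.68% were called higher and 6.26% lower. The median log2 fold change was 1.32 for the mitotic and -0.21 for the transport kinesins, against 0.027 for all tested genes. Every knockdown array was above every control array in 12 of 13 mitotic, 2 of 14 transport and 1 of 4 other kinesins, where 11.5% of all genes had this order. The reverse order was found in 0, 4 and 1 of them, where the share of all genes was 10.7%. In RNA of whole cultures, a larger share of cells in the phase that expresses these genes and more RNA per cell cannot be told apart.

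**Figure D1:**
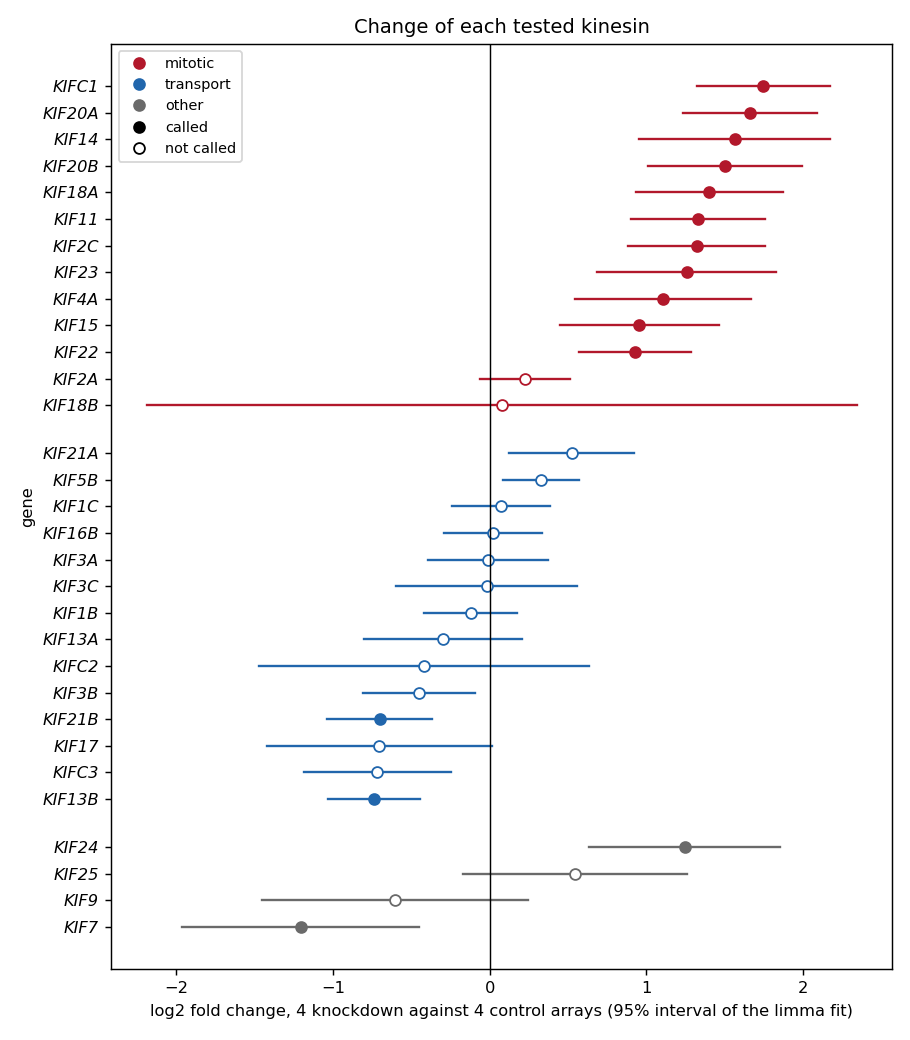
Log2 fold change (x axis) of each of the 31 tested kinesin genes (y axis), 4 knockdown against 4 control arrays, with the 95% interval of the limma fit as a line and filled points for an adjusted p under 0.05. The 11 filled mitotic points lie between 0.93 and 1.75, and the 14 transport points between -0.74 and 0.52.

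The largest rise was that of KIFC1, a motor toward the microtubule minus end that focuses spindle poles and clusters extra centrosomes. Its log2 values were -1.56 and -1.61 on the shControl arrays, -1.11 and -0.92 on the shNontarget arrays, 0.42 and 0.34 on the shBEX2-1 arrays and 0.74 and 0.28 on the shBEX2-2 arrays. All 4 knockdown arrays were thus above all 4 control arrays, with means of 0.45 ± 0.20 and -1.30 ± 0.34 (SD, n = 4 each). The log2 fold change was 1.75 ± 0.19 (SE), a 3.36-fold rise with an adjusted p of 0.00132. KIF20A, which brings the chromosomal passenger complex to the spindle midzone, came next. Its log2 values were -0.54 and -0.56 on the shControl arrays, 0.14 and -0.32 on the shNontarget arrays, 1.10 and 1.19 on the shBEX2-1 arrays and 1.58 and 1.51 on the shBEX2-2 arrays. The groups again did not overlap, and the change was 1.66 ± 0.19 (SE) on the log2 scale, or 3.17-fold, with an adjusted p of 0.00148.

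Genes of motors that set up the bipolar spindle rose with them. KIF11, the motor that slides antiparallel microtubules apart and is blocked by monastrol, had log2 values of -0.31 and -0.37 on the shControl arrays, 0.40 and 0.01 on the shNontarget arrays, 1.01 and 1.21 on the shBEX2-1 arrays and 1.41 and 1.41 on the shBEX2-2 arrays. Its log2 fold change was 1.33 ± 0.19 (SE), or 2.51-fold, with an adjusted p of 0.0033 and no overlap between groups. KIF15, which can keep the spindle bipolar when KIF11 is inhibited, rose by 0.96 ± 0.23 (adjusted p = 0.0248) on the log2 scale, and its values ran from -1.17 to -0.36 in control and from -0.10 to 0.63 in knockdown cells. It was not called without either shControl array, shBEX2-1 replicate 2 or either shBEX2-2 array, with an adjusted p of up to 0.0861 and a log2 fold change of at least 0.78.

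Genes of motors that move and align chromosomes rose by similar amounts. KIF18A, which damps chromosome oscillations at the metaphase plate, had log2 values of -2.16 to -1.39 on control and -0.71 to -0.15 on knockdown arrays, a log2 fold change of 1.40 ± 0.21 (SE) with an adjusted p of 0.00372. KIF2C, which depolymerizes microtubules at wrongly attached kinetochores, was at 1.75 to 2.51 on control and 3.27 to 3.59 on knockdown arrays, and rose by 1.32 ± 0.19 (adjusted p = 0.0036). The chromosome arm motors KIF4A and KIF22 rose by 1.10 ± 0.25 and 0.93 ± 0.16 on the log2 scale (adjusted p = 0.0206 and 0.00677). KIF4A was not called without either shControl or either shBEX2-2 array, with an adjusted p of up to 0.0723 and a log2 fold change of at least 0.97.

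Genes for motors of the midzone and of cytokinesis formed the remainder of the risers. KIF23, which joins RACGAP1 in the centralspindlin complex, was at 1.39 and 1.31 on the shControl arrays, 2.21 and 2.31 on the shNontarget arrays, 2.81 and 2.91 on the shBEX2-1 arrays and 3.25 and 3.26 on the shBEX2-2 arrays. Its log2 fold change was 1.26 ± 0.25 (SE), or 2.39-fold, with an adjusted p of 0.0132, and the vectors lay in steps with no overlap between neighbours. Without shBEX2-2 replicate 1 the adjusted p was 0.0509. KIF14, a partner of PRC1 and citron kinase in the midbody, rose by 1.56 ± 0.27 (adjusted p = 0.00712), although 1 shNontarget array was at 0.90 against -0.33 to -0.03 on the other control arrays. KIF20B, needed late in abscission, was at -0.98 to -0.14 on control and 0.75 to 1.17 on knockdown arrays, a 2.83-fold rise with a 95% interval of 1.01 to 1.99 on the log2 scale (adjusted p = 0.00342).

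The second probes that 4 of these genes had gave the same picture. Their log2 fold changes were 1.43 for KIF4A, 1.37 for KIF23, 1.00 for KIF20B and 0.99 for KIF22, each with an adjusted p of at most 0.0102 over all probes. The KIF22 probes overlap in sequence and are not independent readings. Over the family, 11 further probes of 9 tested genes passed the filter, and 10 had the sign of the probe used for the gene.

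**Figure D2:**
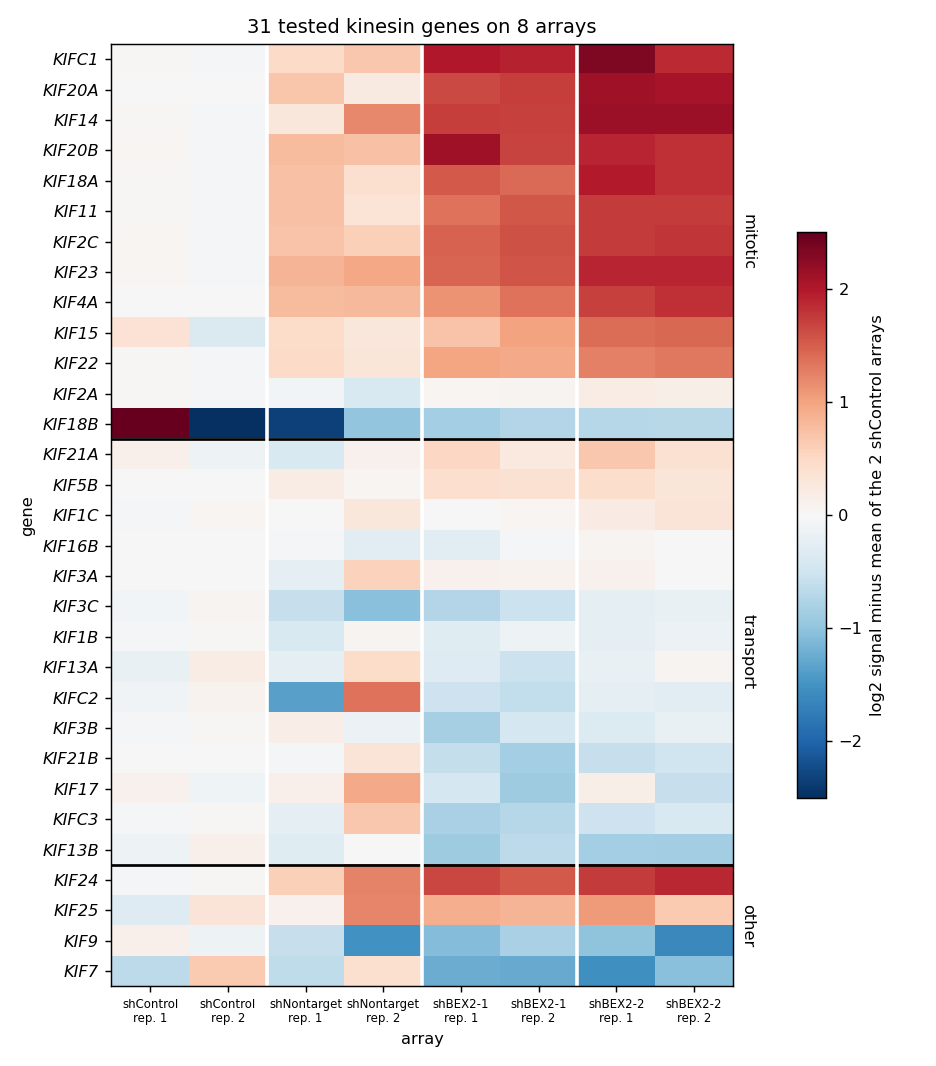
Log2 signal of the 31 tested kinesins (rows, by class and fold change) on the 8 arrays (columns), minus the mean of the shControl arrays of that gene; red is higher and blue lower, and colours end at 2.5 in either direction, which only KIF18B passed. The 11 mitotic kinesins called and KIF24 redden from shControl over shNontarget to the knockdown arrays, and of the transport kinesins KIF5B alone has both steps without overlap, at smaller differences.

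Both mitotic kinesins that were not called had a different pattern. KIF2A, a depolymerizing motor of spindle poles that also acts in neurons, had log2 values of 0.55 and 0.51 on the shControl arrays, 0.46 and 0.14 on the shNontarget arrays, 0.58 and 0.59 on the shBEX2-1 arrays and 0.72 and 0.68 on the shBEX2-2 arrays. All knockdown arrays were higher than all control arrays, yet the difference was only 0.23 ± 0.13 (SE), with a 95% interval of -0.059 to 0.51 and an adjusted p of 0.288. KIF18B, which shortens astral microtubules, had log2 values of -1.04 and -6.38 on the shControl arrays, -6.04 and -4.69 on the shNontarget arrays, -4.55 and -4.44 on the shBEX2-1 arrays and -4.43 and -4.41 on the shBEX2-2 arrays. Replicate 1 of shControl was thus far above the other arrays, and the log2 fold change of 0.08 ± 1.00 (SE) had an interval of -2.19 to 2.34. Without that array it was 1.24 ± 0.41 with an adjusted p of 0.114. The other KIF18B probe, on chromosome 17 as well (hg19, 43005400 to 43005459, against 43006235 to 43006294), was well above background on 3 arrays and not tested. It was at -6.58 and -2.29 on the shControl arrays, so that it too was high on 1 shControl array, but on replicate 2, and at -5.30 to -4.78 on the knockdown arrays. KIF2B was well above background on 0 of 8 arrays.

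KIF24, of the other kinesins, also rose. It encodes a depolymerizing motor of centrioles that restrains the growth of primary cilia, and its log2 values were -2.79 and -2.72 on the shControl arrays, -2.15 and -1.52 on the shNontarget arrays, -1.10 and -1.23 on the shBEX2-1 arrays and -1.01 and -0.88 on the shBEX2-2 arrays. The log2 fold change was 1.24 ± 0.27 (SE), or 2.37-fold, with an adjusted p of 0.018 and no overlap between groups. It was not called without either shControl array, shBEX2-1 replicate 1 or either shBEX2-2 array, with an adjusted p of up to 0.0607 and a log2 fold change of at least 1.08. With shNontarget as the only control the adjusted p was 0.136.

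The promoters of the risers are shown because most of them carry the same pair of motifs. RefSeq windows of 300 bases, from 250 before the start of transcription, were at hand for 33 of the 41 genes and for all 12 kinesins that rose. Searched on both strands were the CCAAT box (CCAAT), the cell cycle homology region (TTTGAA or TTCGAA, of which the latter reads the same on both strands) and the E2F site (TTTCCCGC, TTTCGCGC, TTTGCCGC or TTTGGCGC), and matches of different motifs did not overlap in the kinesin windows. A CCAAT box was found in 10 of the 12 risers, against 39.7% of all 27305 genes of the table, and a cell cycle homology region in 10 of the 12, against 19.5%. Both stood together in 9 of the 12, against 7.85% of all genes, and the E2F letters in 1 of the 12 (KIF15), against 3.99%. Most risers are mitotic. Of the 14 mitotic kinesins on the array, risers or not, 9 (64.3%) held both a CCAAT box and a cell cycle homology region. Of 12 transport kinesins with a window, 4 held a CCAAT box and 1, KIF5B, a cell cycle homology region. The stretches below run from base -120 to base 30, counted from 1 at the start of transcription with no base 0, and capitals mark CCAAT boxes (ATTGG where read on the opposite strand) and cell cycle homology regions (TTCAAA on the opposite strand).
KIFC1, chr6:33391703-33391852 of GRCh38.p14, plus strand: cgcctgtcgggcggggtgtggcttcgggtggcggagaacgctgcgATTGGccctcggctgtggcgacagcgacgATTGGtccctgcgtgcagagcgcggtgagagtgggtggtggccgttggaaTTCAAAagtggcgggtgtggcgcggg
KIF11, chr10:92593010-92593159 of GRCh38.p14, plus strand: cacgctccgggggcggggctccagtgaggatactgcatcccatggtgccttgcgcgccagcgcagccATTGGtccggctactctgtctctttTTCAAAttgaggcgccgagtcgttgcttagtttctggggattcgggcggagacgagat
KIF18A, chr11:28108127-28108276 of GRCh38.p14, minus strand: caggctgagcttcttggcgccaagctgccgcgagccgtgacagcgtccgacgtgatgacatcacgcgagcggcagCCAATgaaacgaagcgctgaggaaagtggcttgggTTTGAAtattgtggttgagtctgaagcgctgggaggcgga
KIF4A, chrX:70289984-70290133 of GRCh38.p14, plus strand: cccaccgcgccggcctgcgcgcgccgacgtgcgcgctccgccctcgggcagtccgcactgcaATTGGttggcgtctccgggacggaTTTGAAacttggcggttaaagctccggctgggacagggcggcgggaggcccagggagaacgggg
KIF23, chr15:69414229-69414378 of GRCh38.p14, plus strand: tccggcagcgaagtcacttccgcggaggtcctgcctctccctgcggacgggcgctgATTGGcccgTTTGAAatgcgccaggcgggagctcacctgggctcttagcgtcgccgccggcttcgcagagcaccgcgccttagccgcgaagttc
KIF22, chr16:29790631-29790780 of GRCh38.p14, plus strand: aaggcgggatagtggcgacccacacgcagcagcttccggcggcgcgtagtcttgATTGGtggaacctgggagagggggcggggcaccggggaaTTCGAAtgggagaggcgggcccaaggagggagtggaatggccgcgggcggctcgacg
KIF20A, chr5:138178992-138179141 of GRCh38.p14, plus strand: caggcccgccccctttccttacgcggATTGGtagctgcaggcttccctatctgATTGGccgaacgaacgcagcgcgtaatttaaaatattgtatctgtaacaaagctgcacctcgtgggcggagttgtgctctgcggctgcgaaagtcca
In KIF11, KIF18A, KIF4A and KIF22 the CCAAT box starts at base -53, -45, -58 and -66 and the cell cycle homology region lies downstream of it, at -28, -10, -34 and -27. In KIF23 the motifs begin at -64 and -55, while KIFC1 has 2 CCAAT boxes and a cell cycle homology region after the start, at base 5. KIF20A, although among the largest rises, has 2 CCAAT boxes and no match to the cell cycle homology region in its 300 bases, and KIF2C has neither motif. KIF18B, which was not called, has both. The transport motors KIF5B and KIF3B are given for contrast.
KIF5B, chr10:32056396-32056545 of GRCh38.p14, minus strand: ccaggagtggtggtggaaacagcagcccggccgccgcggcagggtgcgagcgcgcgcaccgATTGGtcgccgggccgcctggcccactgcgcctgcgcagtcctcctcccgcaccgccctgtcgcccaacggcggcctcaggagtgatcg
KIF3B, chr20:32277531-32277680 of GRCh38.p14, plus strand: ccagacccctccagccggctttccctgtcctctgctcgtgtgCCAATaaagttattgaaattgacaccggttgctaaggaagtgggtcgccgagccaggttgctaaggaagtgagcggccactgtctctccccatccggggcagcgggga
Both carry 1 CCAAT box in this stretch, and the KIF5B match to the cell cycle homology region lies outside it, at base -140. These matches are descriptions of letters and were not tested as sites.

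None of the tested heavy chains of the main transport motors was called. KIF5B, the kinesin heavy chain made in most tissues, had log2 values of 2.34 and 2.33 on the shControl arrays, 2.53 and 2.40 on the shNontarget arrays, 2.76 and 2.73 on the shBEX2-1 arrays and 2.78 and 2.65 on the shBEX2-2 arrays. The knockdown arrays were all higher than the control arrays, by 0.33 ± 0.11 (SE) or 1.26-fold, and the adjusted p was 0.0793. Its other probe passed the threshold, with a log2 fold change of 0.44 and an adjusted p of 0.0398. KIF5B was called higher in 5 alternatives. Among them were the mean of its probes (0.38, adjusted p = 0.0419) and shControl as the only control (0.39, adjusted p = 0.00714). It was also called without shNontarget replicate 1 or 2 (adjusted p = 0.0293 and 0.0423). KIF5A and KIF5C, the neuronal heavy chains, were well above background on 0 of 8 arrays.

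The kinesins that form the heterotrimeric motor of cilia and vesicles showed no called change. KIF3A differed by -0.01 ± 0.17 (SE) on the log2 scale (adjusted p = 0.977) and its partner KIF3C by -0.02 ± 0.26 (adjusted p = 0.974). KIF3B, the other partner, was lower on every knockdown array, at 1.18 to 1.49 in control and 0.49 to 1.15 in knockdown cells, a difference of -0.45 ± 0.16 with an adjusted p of 0.0991.

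Of the KIF1 vesicle motors, KIF1C differed by 0.07 ± 0.14 on the log2 scale (adjusted p = 0.79) and KIF1B by -0.12 ± 0.13 (adjusted p = 0.604). The array reads KIF1B with 4 probes, 1 designed on NM_015074 and 3 on NM_183416, which stand for different transcripts. The differences of the 3 were -0.27, -0.06 and 0.60, and none was called. KIF1A, known from neurons, was well above background on 1 array and was not tested.

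Only KIF13B and KIF21B of the transport kinesins passed the threshold, both downward. KIF13B, a motor for phosphoinositide vesicles and membrane guanylate kinases, had log2 values of 2.94 and 3.20 on the shControl arrays, 2.77 and 3.06 on the shNontarget arrays, 2.18 and 2.41 on the shBEX2-1 arrays and 2.22 and 2.20 on the shBEX2-2 arrays. Its fall was 0.74 ± 0.13 (SE) on the log2 scale, or 1.67-fold, with an adjusted p of 0.00775, and a second probe fell by 1.05 (adjusted p = 0.00554). KIF21B, which pauses microtubule growth, had log2 values of -1.93 and -1.94 on the shControl arrays, -1.98 and -1.63 on the shNontarget arrays, -2.54 and -2.80 on the shBEX2-1 arrays and -2.52 and -2.44 on the shBEX2-2 arrays. It fell by 0.70 ± 0.15 with an adjusted p of 0.0162, and neither gene overlapped between groups. KIF21B was not called without shControl replicate 1, shBEX2-1 replicate 2 or shBEX2-2 replicate 1, with an adjusted p of up to 0.0528. The other transport motors tested (KIF13A, KIF16B, KIF17, KIF21A, KIFC2, KIFC3) lay between -0.72 and 0.52 and were not called.

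KIFC1 and KIFC3 are related motors with the motor domain at the C-terminal end, and KIFC3 was singled out after its values were seen. Their probes are printed to show which sequences were read, with capitals for the bases that were identical in the best alignment without gaps.
KIFC1: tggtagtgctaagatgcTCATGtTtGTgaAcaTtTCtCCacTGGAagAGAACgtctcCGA
KIFC3: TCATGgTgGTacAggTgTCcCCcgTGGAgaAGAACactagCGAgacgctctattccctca
The 60-base probes shared 26 of 43 aligned bases, with no identical run longer than 5. KIFC3 had log2 values of -1.20 and -1.15 on the shControl arrays, -1.41 and -0.49 on the shNontarget arrays, -1.98 and -1.88 on the shBEX2-1 arrays and -1.70 and -1.56 on the shBEX2-2 arrays. It differed by -0.72 ± 0.21 (SE) with an adjusted p of 0.0531, which became 0.0476 with the replicate number as a block, while KIFC1 rose.

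KIF7, a ciliary regulator of Hedgehog signalling, was the remaining gene called lower. Its log2 values were -4.40 and -3.10 on the shControl arrays, -4.40 and -3.35 on the shNontarget arrays, -4.99 and -5.01 on the shBEX2-1 arrays and -5.28 and -4.80 on the shBEX2-2 arrays. The fall of 1.21 ± 0.33 (SE) had an adjusted p of 0.0454, but the probe was well above background on 1 of 4 knockdown arrays, so that it entered the test through the control arrays. With normexp background correction the fall was 0.093 (adjusted p = 0.731), and the call was lost in 11 of 19 alternatives, among them 6 of the 8 that left out 1 array (all but shControl replicate 1 and shNontarget replicate 1), with an adjusted p of up to 0.132 in those. KIF27, its paralog, was well above background on 3 control and 0 knockdown arrays and was therefore not tested. The log2 fold changes of the tested KIF25 and KIF9, at 0.54 and -0.61, were not called (adjusted p = 0.311 and 0.344), and KIF6, KIF12, KIF19, KIF26A and KIF26B were well above background on at most 2 arrays. KIF6 and KIF12 were each well above background on a single array, KIF6 on shControl replicate 1 at -2.30 and KIF12 on shBEX2-1 replicate 1 at -3.91, while the other arrays lay between -7.55 and -6.92 for KIF6 and between -7.45 and -7.11 for KIF12.

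**Figure D3:**
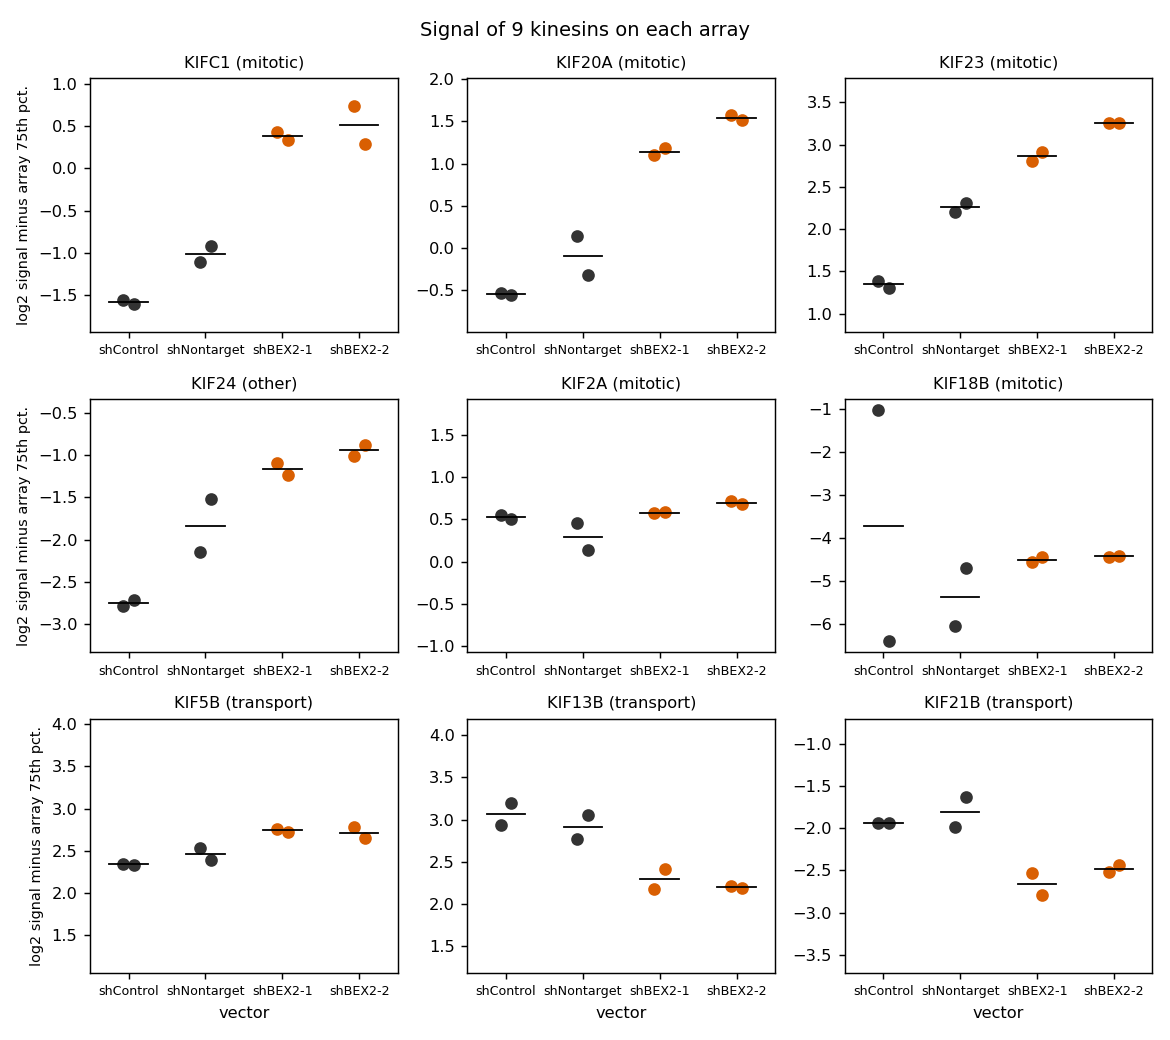
Log2 signal minus the 75th percentile of the array (y axis) of 9 kinesins in the cells of each vector (x axis), 1 point per array and a line at the mean of 2 arrays; grey is control and orange knockdown, and each y axis has its own range of at least 3. KIFC1, KIF20A, KIF23 and KIF24 climb from left to right, KIF13B and KIF21B drop in the knockdown cells, and KIF18B shows 1 high shControl array at -1.04.

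The sublines were compared next with the mean of both control vectors, with most mitotic kinesins rising in each. In shBEX2-1 cells 12 kinesins were called, 11 higher and 1 lower, where 3.38% of all genes were called higher and 3.62% lower. In shBEX2-2 cells 13 were called, 12 higher and 1 lower, against 4.86% and 4.81%. Both contrasts use the same control arrays. The 12 kinesins that rose over 4 against 4 arrays were picked on these same arrays, so their calls here are no separate support. Of them 11 were called in shBEX2-1 cells and 12 in shBEX2-2 cells. KIF15 was the exception, at 0.68 (adjusted p = 0.133) in shBEX2-1 cells. The median log2 fold change of the 12 was 1.18 in shBEX2-1 and 1.47 in shBEX2-2 cells.

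Against shControl alone, 10 of the 13 tested mitotic kinesins were called higher in shBEX2-1 and 11 in shBEX2-2 cells. The shares of all genes called higher were 2.59% and 3.82%. Against shNontarget alone the numbers were 4 of 13 and 10 of 13, where the shares were 1.5% and 3.22%. The median log2 fold changes of the 12 risers were 1.52 and 1.84 against shControl and 0.89 and 1.11 against shNontarget. All 12 values were above 0 in each of these contrasts, which is no separate support because the 12 were picked on these same arrays. With both sublines together, shControl as the only control left 11 of 13 mitotic kinesins called. It also called 1 of 14 transport kinesins higher and 4 lower, and of the 4 other kinesins 2 higher and 2 lower. With shNontarget as the only control 4 mitotic kinesins were called (KIFC1, KIF20A, KIF20B, KIF2C) and no transport or other kinesin. The log2 fold changes of the 11 then lay between 0.70 and 1.46. Shares of all genes called in these 2 fits are not given here.

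Both falls lay near the threshold in single sublines. KIF13B was called in shBEX2-2 cells, with a log2 fold change of -0.78 and an adjusted p of 0.0293, and missed the threshold in shBEX2-1 cells, at -0.69 (adjusted p = 0.0519). KIF21B was called in shBEX2-1 cells, at -0.79 (adjusted p = 0.0451, and 0.0731 with the replicate number as a block), and not in shBEX2-2 cells, at -0.61 (adjusted p = 0.079). The difference between the sublines was 0.09 for KIF13B and -0.18 for KIF21B, with adjusted p-values of 1 for both after rounding.

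No kinesin was called between the sublines in limma (0 of 31 called and 3 at an unadjusted p under 0.05, against 0.00977% and 7.29% of all genes). That fit shares 1 spread over all arrays, including the shNontarget pair, in which 34.9% of genes differed by more than 1. The shares were 1.56% in the shBEX2-1 and 0.562% in the shBEX2-2 pair. A difference between the sublines could thus go uncalled, and the lack of calls does not show that they were alike. The order of the arrays was the same for most kinesins. Both shBEX2-2 arrays were above both shBEX2-1 arrays in 11 of 13 mitotic, 8 of 14 transport and 1 of 4 other kinesins, and never below, where 26.8% of all genes had the first order and 33.3% the opposite one. The differences of the 12 risers, shBEX2-1 minus shBEX2-2, ran from -0.55 for KIF15 to 0.04 for KIF20B. BEX2 itself was lower by at least 1.94 on the log2 scale in shBEX2-1 cells, a bound because its probe was not well above background there (adjusted p = 0.0336). In shBEX2-2 cells its log2 difference from both control vectors was -1.32, with an adjusted p of 0.0813.

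The control vectors also differed in the direction of the knockdown. Both shNontarget arrays were above both shControl arrays in 10 of 13 mitotic kinesins and in KIF24, against 14.5% of all genes, but in 2 of 14 transport kinesins. The opposite order was found in KIF2A, in 2 transport kinesins and in 1 other kinesin, against 12.1% of all genes. All 12 risers were higher in shNontarget than in shControl cells, by 0.37 to 0.92 on the log2 scale with a median of 0.61, and 11 had an unadjusted p under 0.05, as had 7.64% of all genes. None passed the adjusted threshold (0 of 31 kinesins and 0 of 20464 genes in limma, with the lowest adjusted p of the risers at 0.338). The shNontarget pair enters the spread of this fit too, so a difference between the control vectors could go uncalled. The 2 shNontarget arrays, which stood far apart over all genes, were close in KIF23 (2.21 and 2.31), KIF4A (-0.04 and -0.01) and KIF20B (-0.14 and -0.21) and apart in KIF14 (-0.03 and 0.90). The order shControl, shNontarget, shBEX2-1, shBEX2-2 with no overlap between neighbours was met by 8 of 13 mitotic kinesins and by KIF24, by 0 of 14 transport kinesins, and by 1.46% of all genes. BEX2 was not lower in shNontarget than in shControl cells, with a log2 difference of 0.40 (adjusted p = 0.964).

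**Figure D4:**
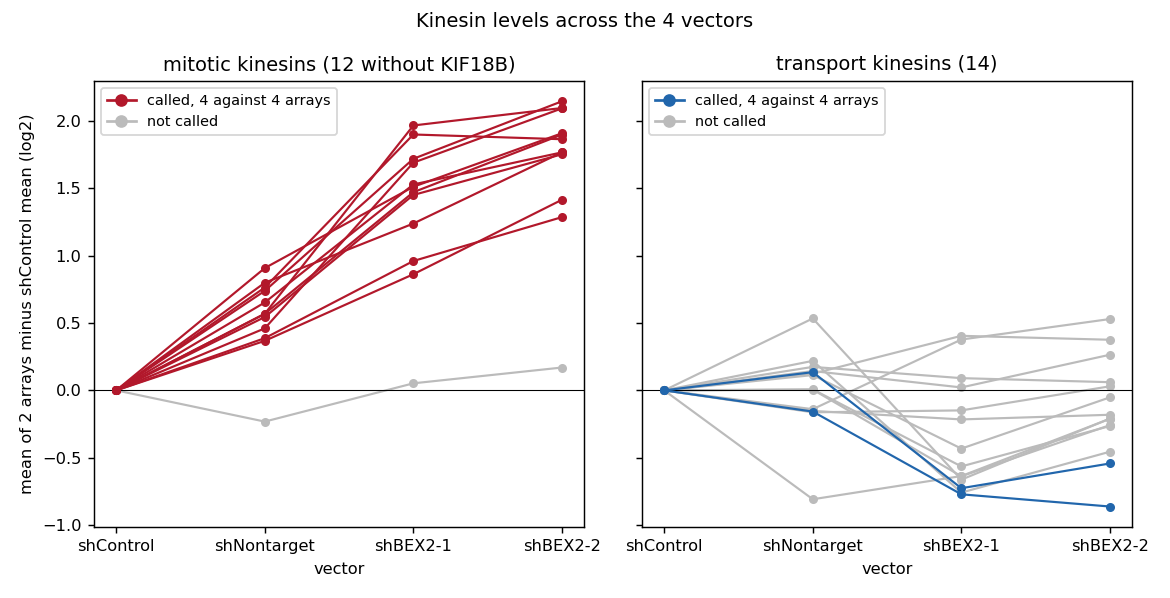
Mean log2 signal of the 2 arrays of each vector minus the shControl mean of that gene (y axis) for mitotic kinesins without KIF18B (left) and for transport kinesins (right), with the vectors along the x axis and coloured lines for genes called over 4 against 4 arrays. The 11 coloured mitotic lines climb from shControl to shNontarget and on to both sublines, and those of KIF13B and KIF21B drop in the sublines.

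The median over the 13 mitotic kinesins showed these steps on single arrays. It was -0.47 and -0.56 on the shControl arrays and -0.03 and -0.06 on the shNontarget arrays. On the shBEX2-1 arrays it was 0.63 and 0.59, and on the shBEX2-2 arrays 0.90 and 0.97. The median over the 14 transport kinesins was -0.70 and -0.55 with shControl, -1.49 and 0.02 with shNontarget, -1.25 and -1.20 with shBEX2-1, and -0.87 and -0.85 with shBEX2-2. Mitotic medians did not overlap between knockdown and control arrays and transport medians did, while the median of all tested genes stayed between -1.14 and -0.93 on the 8 arrays.

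RNA of most listed proteins that work with the mitotic kinesins rose as well. The lists of this paragraph and the next were drawn up with earlier results of these data known. Their calls are therefore no separate support. Of 15 listed partners (passenger complex, centralspindlin, midzone and spindle pole proteins) all were tested, 13 rose and none fell, against 6.68% and 6.26% of all genes, with a median log2 fold change of 1.39. The largest rises were those of PRC1, which bundles antiparallel midzone microtubules and recruits KIF4A, KIF14 and KIF20A, at 1.70 ± 0.20 (SE, adjusted p = 0.00165), and of INCENP, the scaffold of the passenger complex, at 1.69 ± 0.26 (adjusted p = 0.00457). CENPE, the kinetochore kinesin whose name kept it out of the family as selected, was in this list and rose by 1.42 ± 0.30 (adjusted p = 0.015), and it was at -0.52 to 0.66 on control and 1.06 to 1.74 on knockdown arrays. Without shBEX2-2 replicate 1 or 2 it was not called, with an adjusted p of up to 0.0561. AURKB, the kinase of the passenger complex, at 0.90 (adjusted p = 0.0612), and NUMA1, a spindle pole protein that works with dynein, at -0.17 (adjusted p = 0.513), did not pass.

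Partners of the transport kinesins did not follow. Of 18 listed cargo adaptors, light chains and organelle linkers 17 were on the array and 15 were tested, of which 0 were called in limma over 4 against 4 arrays and 2 had an unadjusted p under 0.05, against 12.9% and 27.8% of all genes. Their log2 fold changes ran from -0.62 for TRAK2, a mitochondrial adaptor, to 0.30 for KLC2, a kinesin light chain. TRAK2 was called in shBEX2-1 cells, at -1.17 (adjusted p = 0.0102), and not in shBEX2-2 cells, at -0.07 (adjusted p = 0.822), and the difference between the sublines was -1.10 (adjusted p = 0.117). Of 16 dynein and dynactin subunits 15 were tested and 1 was called higher, a share near the 6.68% of all genes. It was the light chain DYNLL2, at 0.85 ± 0.18 (adjusted p = 0.0156), which was not called without either shControl or either shBEX2-2 array (adjusted p of up to 0.0591), and the others lay between -0.25 and 0.52.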

How the data were processed

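The authors labelled total RNA with Cy3, hybridized it to 1-colour Agilent arrays of design 028004 and extracted the signals with Agilent Feature Extraction 10.7.3.1, per the labels and the file headers. The deposited intensity of each spot is the processed signal, background-subtracted and detrended within the array and not scaled between arrays. A series-wide table of the same intensity, also deposited, differs from it by at most 0.497%. The study's methods name rank products in R. The package for that test was not installed here, and limma was used in its place.

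Control spots were left out and 3 to 15 non-uniform spots per array were set missing. Log2 intensity minus the 75th percentile of the array was averaged over the spots of a probe. A probe was used if it was well above background in 4 or more of 8 arrays, and each gene was read from its brightest such probe by the mean over arrays. The model lmFit with eBayes (trend of variance on intensity; R 4.3.3, limma 3.58.1, statmod 1.5.0) compared 4 knockdown with 4 control arrays, and a second model held the 4 vectors, with 1 spread shared by all arrays. Calls were made at an adjusted p under 0.05 (Benjamini-Hochberg over all tested genes), and standard errors and 95% intervals are those of the fit. The fit was tested on simulated data. Tables and figures were made with Python 3.11.15, numpy 2.4.6, pandas 2.3.3, scipy 1.17.1 and matplotlib 3.10.9. Gene names and hg19 probe positions are those of the array design, all 41 kinesin names are current RefSeq symbols, and promoter windows are from RefSeq on GRCh38.p14. The number of arrays limits the precision.

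Members, classes and lists were chosen with earlier results of these data known. Named are BEX2, every mitotic kinesin, kinesins of the KIF1, KIF3 and KIF5 heavy chain families, other kinesins past the threshold, and from each partner list up to 2 called rises and 2 called falls, with exceptions named in the text. Alternatives were normexp background correction (offset 50), quantile normalization, the series-wide table, a stricter and no filter on dim probes, averaging over probes of a gene, a block for replicate number or vector, the 4-vector model, Student's t-test, each control vector alone and each array left out in turn. The replicate numbers were taken as paired because both replicates carry different days in the deposited file names, with no word on what the day refers to. Replicate differences of 2 vectors correlated across genes with r of 0.26, 0.13, 0.11, -0.063, 0.21 and 0.23. Arrays of CD274-knockdown cells were not used here, and 1 listed marker gene is not reported here.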

Additional observations from a re-analysis of the deposited data

Results flagged for a closer look

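Among 64 groups of 4 arrays (31 tested kinesins and BEX2, control and knockdown), 3 held an array whose gap to the nearest other array passed Dixon's 95% critical value, as a share of the range of the group, where chance gives about 1 in 20. KIF13B was at 2.41 on shBEX2-1 replicate 2 against 2.18 to 2.22 on the other knockdown arrays. Both remaining cases were on shNontarget replicate 2. KIF16B, an endosome motor, was at -2.09 there against -1.84 to -1.79 on the other control arrays. KIF21B was at -1.63 there against -1.98 to -1.93 on the other control arrays, and its fall was 0.62 (adjusted p = 0.0144) without that array. No tested kinesin differed between the sublines past the adjusted threshold.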

How the results depend on the processing

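The rise of 11 mitotic kinesins was above 0 in all 11 under every alternative run, with 8 to 11 of them called when 1 array was left out and 4 called with shNontarget as the only control. Kinesins called over 4 against 4 arrays numbered 4 with that control and 9 to 17 with 1 array left out, the lowest without shBEX2-2 replicate 1. For shBEX2-1 against both control vectors the number was 4 against shNontarget alone and 0 to 24 with 1 array left out, 0 without either shControl or either shBEX2-1 array and 24 and 21 without shNontarget replicate 1 and 2. For shBEX2-2 it was 0 to 23, 0 without either shBEX2-2 array and 22 and 23 without shNontarget replicate 1 and 2. The sublines differed in 0 to 7 and the control vectors in 0 to 18 kinesins, above 0 only without a shNontarget array. In these fits a lone array is taken to vary like the others. Without a shNontarget array, the difference within that pair no longer enters the spread of any gene. Shares of all genes called with 1 array left out are not given here, so these swings are no result about kinesins. The median log2 fold change of the mitotic kinesins was 1.65 with shControl and 1.00 with shNontarget as the only control, and 1.19 to 1.45 with 1 array left out; that of the transport kinesins was -0.31 to -0.12 then. Student's t-test called 12 kinesins after adjustment and 19 without it. The replicate block gave 16, 11 and 13 called kinesins over 4 against 4 arrays, in shBEX2-1 and in shBEX2-2 cells, and changed 2 calls of kinesins, KIFC3 over 4 against 4 arrays (adjusted p = 0.0476) and KIF21B in shBEX2-1 cells (adjusted p = 0.0731). Signs were followed for the tested mitotic and heavy chain kinesins, the called kinesins and KIFC3, and not for the remaining kinesins. Among those followed, signs turned only in kinesins with no called change. KIF18B was at -0.084 with normexp, -0.75 with shControl alone, -0.42 without shNontarget replicate 1, and between -0.54 (without shControl replicate 2) and 1.24 (without shControl replicate 1) with 1 array left out. KIF1B was at 0.037 with the mean of its probes and KIF1C at -0.00024 with shNontarget alone. KIF3A was at 0.076 with shControl alone, 0.0092 without shBEX2-2 replicate 2, and between -0.11 and 0.15 (without shNontarget replicate 1 and 2) with 1 array left out. KIF3C was at 0.021 with quantile normalization, 0.39 with shNontarget alone, and between -0.23 and 0.14 with 1 array left out, above 0 without either shControl or either shBEX2-1 array. The causes were not tested.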
